A study of Mus musculus with 19 samples.

Results

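Crabp1 and 8 other genes of retinoid handling were followed across both sampled lobes of the mouse prostate and 2 diets. The genes are Stra6, Rbp4, Rdh10, Aldh1a1, Aldh1a2, Aldh1a3, Crabp1, Crabp2 and Rarb, 9 of the 18193 genes with a probe set of their own on the array. They were chosen by name because they carry out the uptake, synthesis, binding and sensing of retinoic acid, and each was read on the probe set with the highest mean over the 19 arrays among those annotated to it alone. Crabp1 was selected on its log2 levels by lobe and diet in these same arrays, so its values are given as a description with no test. The other 8 were tested, those with too little signal only in a fit with no filter on low values.

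The mice were wild-type C57BL/6J animals, 8 weeks old at the start and then fed for 12 weeks, with 5 mice on each diet. The 4 groups follow from the titles: 4 arrays of the dorsolateral prostate (DLP) of mice on a high fat diet (HFD), 5 of the DLP of mice on the control diet, 5 of the ventral prostate (VP) of HFD mice and 5 of the VP of control mice. The labels give the diets by name alone, and they do not say which mouse gave which array, so a p-value reflects array-to-array spread within the groups, which may in part be technical. With 5 mice on each diet, the DLP and VP arrays of a diet may come from the same mice. The main fit did not use such a pairing and treated all arrays as independent, also between lobes. The anterior lobe, which the labels also name, was not analysed here. RNA came from whole lobes, in which fewer cells of a type and less RNA per cell cannot be told apart.

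Levels are taken as log2 of the array signal plus 1, so a difference of 1 is a doubling of signal plus 1. At low levels this is not a doubling of the signal itself, and fold sizes are those of signal plus 1. All arrays share 1 distribution of values, with a median of 1.85, and a level below that median carries little signal. The number of arrays limits the precision. Prostate identity was clear, with Hoxb13 and Pbsn, a homeobox factor and an androgen-driven secretory protein of the prostate, at mean log2 levels of at least 7.75 and 10.3 in every group. The ventral lobe markers Mug1 and Spink5 averaged between 0.98 and 2.63 in DLP groups and between 7.51 and 9.53 in VP groups, while the dorsolateral markers Tgm4 and Fcgbp averaged between 10.7 and 12.7 in DLP groups and between 1.73 and 2.64 in VP groups. Of the other 2 dorsolateral markers, Mmp7 averaged 10.9 in HFD DLP, 10.8 in control DLP, 4.79 in HFD VP and 3.79 in control VP, reaching 7.68 on 1 HFD VP array. Msmb was high throughout, with DLP minus VP of 0.69 in HFD mice and 0.79 in control mice and limma's adjusted p of 0.32 and 0.212. HFD VP 3 and control VP 4 had the lowest mean correlations with their own groups, 0.972 and 0.976, and results that rest on them are also given without them.

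Retinol reaches tissues bound to the plasma carrier retinol-binding protein and can enter cells through the membrane receptor STRA6. Inside the cell retinol is oxidised to retinal, by enzymes such as RDH10, and retinal is then oxidised irreversibly to retinoic acid by the ALDH1A dehydrogenases. The cellular retinoic acid-binding proteins CRABP1 and CRABP2 hold retinoic acid in the cytoplasm. CRABP1 is associated with its sequestration and breakdown, and CRABP2 hands it to nuclear receptors. These receptors, RARs paired with RXRs, bind repeated 6-base motifs in DNA, and retinoid signalling is required for development and epithelial upkeep of the prostate.

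The sequences before the annotated starts of 3 members are shown because these genes carry the results: Crabp1 with the widest range over the arrays, Aldh1a1 with the lobe difference of smallest p-value, and Rarb, a receptor gene with a textbook retinoic acid response element in its own promoter. Each runs 5′ to 3′ over the 250 bases before the start, from RefSeq on the GRCm38.p6 build. The windows are chr9:54764498-54764747 on the plus strand for Crabp1, chr19:20601718-20601967 on the plus strand for Aldh1a1, which is 1 of its 2 listed starts, and chr14:16575477-16575726 on the minus strand for Rarb. Capitals mark GGGCGG boxes on either strand in Crabp1, the CCAAT box in Aldh1a1, and in Rarb a direct repeat of the receptor motif with 5 bases between its copies.
Crabp1: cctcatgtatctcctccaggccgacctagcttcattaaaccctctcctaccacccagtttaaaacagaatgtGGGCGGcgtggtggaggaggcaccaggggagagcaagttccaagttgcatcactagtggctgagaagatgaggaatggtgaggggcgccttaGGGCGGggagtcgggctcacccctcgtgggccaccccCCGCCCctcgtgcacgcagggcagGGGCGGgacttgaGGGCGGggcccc
Aldh1a1: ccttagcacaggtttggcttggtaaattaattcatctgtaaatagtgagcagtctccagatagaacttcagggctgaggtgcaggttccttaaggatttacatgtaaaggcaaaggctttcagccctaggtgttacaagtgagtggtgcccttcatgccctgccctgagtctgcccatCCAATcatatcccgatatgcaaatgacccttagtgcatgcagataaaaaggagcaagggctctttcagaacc
Rarb: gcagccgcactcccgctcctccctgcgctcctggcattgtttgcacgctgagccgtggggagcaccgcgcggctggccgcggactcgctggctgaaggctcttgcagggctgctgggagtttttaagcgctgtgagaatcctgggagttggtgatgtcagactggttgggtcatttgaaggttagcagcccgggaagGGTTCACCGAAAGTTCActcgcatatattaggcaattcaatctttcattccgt

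The Crabp1 window held 5 matches to GGGCGG, no CCAAT and no TATAAA, with a GC content of 63.6% against a median of 52.4% over 32851 windows of this length. At least 1 GGGCGG, on either strand, was present in 32.7% of all windows, CCAAT in 33.8% and TATAAA in 12.4%. The receptor motif was searched on both strands as AGGTCA or GGGTCA or AGTTCA or GGTTCA. It matched 3 times in Rarb, 2 of them inside the repeat, once in Aldh1a1 and at no place in the Crabp1 window, against 38.6% of all windows with a match. A direct repeat of it with 5 bases between was found in 0.0883% of all windows, and in Rarb among the 11 windows of the 6 members that the table lists, while a repeat with 2 bases between was in none of the 11. The other members with windows were Aldh1a2, Stra6 and Rbp4. A match is a description of the letters and was not measured as a binding site.

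Of the 9 members, 7 lay above the array median on at least 4 arrays, the condition for entering the fit. Crabp2 and Rbp4 did not. Crabp1 met it through VP alone, with 10 VP and 0 DLP arrays above the median, Rarb through 7 VP arrays, and Stra6 through 9 DLP and 2 HFD VP arrays. For these genes a lobe difference is partly built into the condition. Values of all 9 members on each array are drawn in the plot of members by array.

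**Figure D1:**
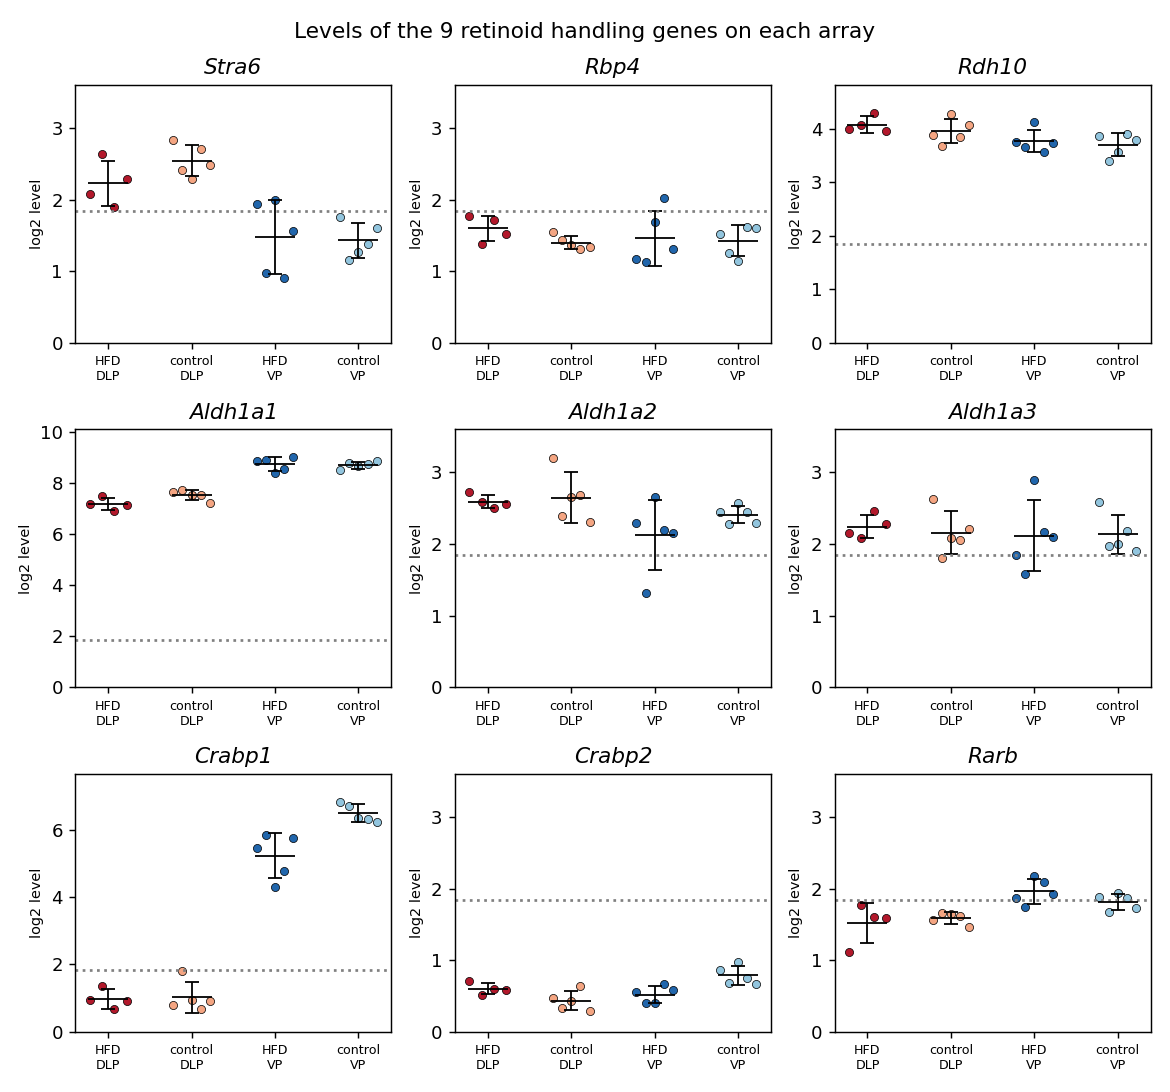
Log2 level (vertical axes, with scales of their own) of each of the 9 genes on each array, by group. Points are arrays, bars are the mean and SD of 4 HFD DLP arrays or 5 arrays of each other group, and the dotted line is the array median of 1.85. Crabp1 and Aldh1a1 were higher in VP, Stra6 was higher in DLP, and all Crabp2 points lay below the median.

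Crabp1, the cytoplasmic retinoic acid-binding protein picked for this pattern, was high in VP and near the low end of the arrays in DLP. Its log2 levels were 0.95, 1.36, 0.67 and 0.91 on the HFD DLP arrays and 0.78, 1.80, 0.94, 0.66 and 0.91 on the control DLP arrays. They were 5.45, 5.85, 4.30, 4.78 and 5.75 on the HFD VP arrays and 6.84, 6.70, 6.35, 6.32 and 6.23 on the control VP arrays. Every DLP array lay below every VP array, and every HFD VP array lay below every control VP array, whereas the diets overlapped in DLP.

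The Crabp1 means were 0.97 ± 0.29 (SD, n = 4) in HFD DLP, 1.02 ± 0.45 (SD, n = 5) in control DLP, 5.23 ± 0.66 (SD, n = 5) in HFD VP and 6.49 ± 0.27 (SD, n = 5) in control VP. DLP minus VP was -4.26 in HFD mice and -5.47 in control mice. Because the DLP levels lay below the array median, these sizes depend on the offset inside the logarithm. With an offset of 16 in place of 1 they were -1.65 in HFD mice and -2.62 in control mice. Set against the array median instead of the DLP level, Crabp1 was 3.38 above it in HFD VP and 4.64 above it in control VP. The 3.38 is 10.4-fold in signal plus 1.

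In VP the HFD minus control difference of Crabp1 was -1.26, or 2.40-fold lower on the high fat diet. This size too depends on the offset inside the logarithm. Of 11728 genes, 4 had a more negative difference in this comparison, a rank that is partly built in because Crabp1 was picked for its diet pattern. Leaving out each array in turn gave -1.42 to -1.03, and leaving out control VP 4 and HFD VP 3 together gave -1.07. In DLP the difference was -0.05, between levels that were both below the array median, where the array carries little signal. HFD VP 3 had the lowest Crabp1 level among VP arrays and the highest summed macrophage markers, with a log2 sum of 8.34 against 5.38 to 6.05 on the other HFD VP arrays and 5.41 to 7.31 on control VP arrays. Without HFD VP 3 the Crabp1 difference is the -1.03 given above.

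Markers of the lobes and of neighbouring tissue were set beside the Crabp1 diet difference in VP. The summed log2 level of the 5 luminal epithelial markers ran from 11.4 to 11.5 on HFD VP arrays and from 11.2 to 11.6 on control VP arrays. The mean log2 level of the 4 dorsolateral markers ran from 4.55 to 5.72 on HFD VP arrays and from 4.00 to 5.41 on control VP arrays, so the ranges overlapped. On HFD VP arrays 1 to 5 that mean was 5.24, 4.55, 5.72, 5.67 and 4.995, in the reverse order of their Crabp1 levels. On control VP arrays 1 to 5 it was 5.41, 4.00, 5.14, 4.35 and 5.10, in no such order. Summed, the same 4 markers were at 12.59, 10.60, 12.94, 10.44 and 12.18 on HFD VP arrays 1 to 5. This sum was not in the reverse order of Crabp1, with HFD VP 4 lowest. Mmp7, 1 of the 4 markers, ran from 2.59 to 7.68 on HFD VP arrays. The 2 measured ventral markers summed to 9.32, on HFD VP 3, to 10.3 on HFD VP arrays. On control VP arrays they summed to 9.34 to 10.26. The 5 adipocyte markers summed to 2.35 to 3.03 on HFD VP arrays and 3.00 to 4.25 on control VP arrays. Adipoq, Cidec, Retn and Lep did not pass the filter, and their VP means lay below the array median. Adipoq averaged 1.08 on HFD VP and 1.34 on control VP arrays, and Cidec 0.70 and 0.94. Retn, at 1.19 and 1.16, and Lep, at 0.72 and 0.54, were higher on HFD VP arrays instead. Car3, the 1 adipocyte marker past the filter, ran from 1.46 to 1.99 on HFD VP arrays. On control VP arrays it ran from 2.21 to 3.79, with no overlap. Its HFD minus control was -1.19, at an adjusted p of 0.075 in limma. Of the 5 smooth muscle markers Des had 0.61 and Tagln 0.26 in the same comparison, with limma's adjusted p of 0.0854 and 0.0827. The 6 measured seminal vesicle markers reached 6.78 on HFD VP 2 and lay between 1.68 and 3.65 on the other HFD VP arrays, against 1.71 to 2.74 on control VP arrays. Crabp1 on HFD VP 2, at 5.85, was the highest of its group. The part of these markers in the diet difference was not tested.

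The DLP array with the highest Crabp1, control DLP 2, also had the highest ventral marker sum of its group, 3.92 against 2.07 to 3.53 on the other control DLP arrays. HFD DLP 2, with the highest Crabp1 of its group, had a ventral sum of 4.35 against 1.18 to 1.86 on the other HFD DLP arrays. The part of ventral RNA in these DLP values was not tested.

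The pattern of Crabp1 over the 19 arrays was compared with that of every other tested gene by the mean absolute difference of their centred log2 levels. The 6 nearest genes were Rnf186 at 0.37, Slc5a8 at 0.43, Hdac9 at 0.43, Naip6 at 0.45, Trpv6 at 0.45 and Slc26a4 at 0.46, against a median of 2.43 over 11727 genes. All 6 were high in VP and low in DLP, with DLP minus VP in control mice between -5.57 and -4.43. They differed in the diet comparison within VP. Naip6, a relative of the NAIP inflammasome sensors, had HFD minus control of -1.04 and Slc5a8, a sodium-coupled monocarboxylate transporter, -0.71, while Rnf186, Trpv6, Hdac9 and Slc26a4 had -0.21, -0.15, -0.11 and -0.02. These genes were chosen for their likeness to Crabp1, and their differences are a description.

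**Figure D2:**
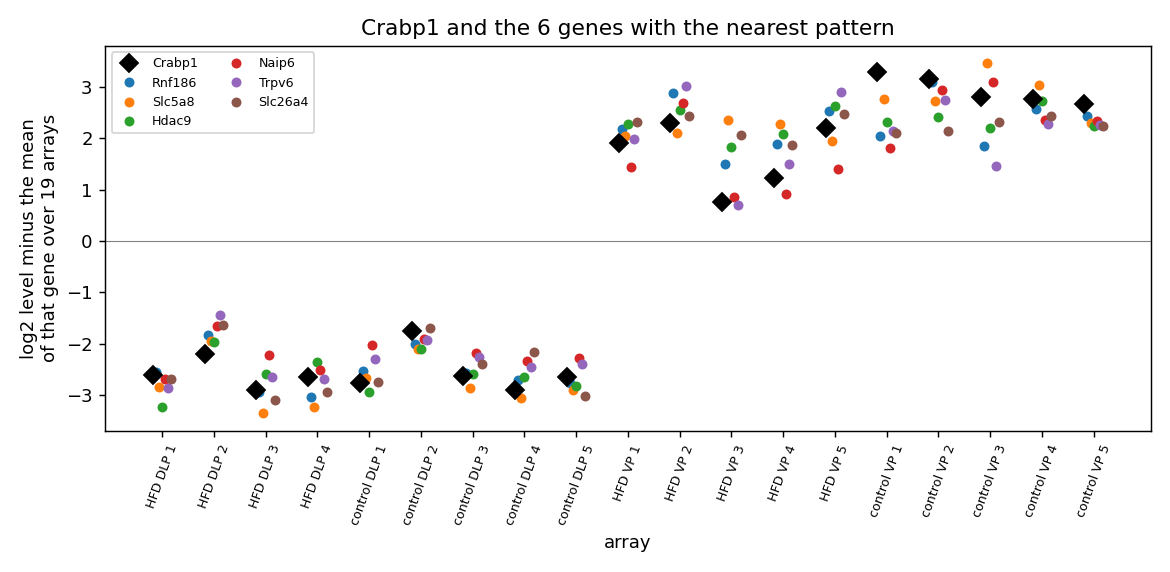
Log2 level minus the mean of the same gene over 19 arrays (vertical axis) for Crabp1 (black diamonds) and the 6 nearest genes (coloured points) on each array (horizontal axis). All 7 genes lie below 0 on DLP arrays and above 0 on VP arrays, and on HFD VP 3 Crabp1, Naip6 and Trpv6 lie closest to 0 among these VP values.

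Lobe differences were tested for the 6 members other than Crabp1 that passed the filter, with limma fitted to all 11728 genes. A gene is referred to as called when its adjusted p was under 0.05. In HFD mice 3 of 6 passed this threshold, where 52.9% of all genes tested did, and in control mice 2 of 6 passed, where 55% of all genes did. These counts were no higher than the share over all genes, and Rarb and Stra6 entered the fit through the lobe in which they were higher, so the counts are a description. Aldh1a1 was lower and Stra6 higher in DLP on both diets, and Rarb was lower in DLP in HFD mice.

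Markers of cell types also differed between the lobes. Of 5 luminal epithelial markers 3 were lower and 1 higher in DLP in HFD mice, and 3 were lower and 0 higher in control mice, with Cdh1 at -0.87 and -0.94 and Epcam at -0.55 and -0.54. Of 5 smooth muscle markers 3 were higher in DLP on each diet, with Cnn1 at 1.31 in HFD mice and 1.22 in control mice. Of 5 fibroblast markers 1 was higher on each diet, Lum, at 1.44 and 1.48. Of 4 basal markers 2 were higher in HFD mice and 4 in control mice, and of 5 nerve markers 3 and 5. The summed luminal level ran from 11.24 to 11.28 in HFD DLP, 11.003 to 11.22 in control DLP, 11.35 to 11.53 in HFD VP and 11.2 to 11.6 in control VP. The part of these cell type markers in the members' lobe differences was not tested.

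**Figure D3:**
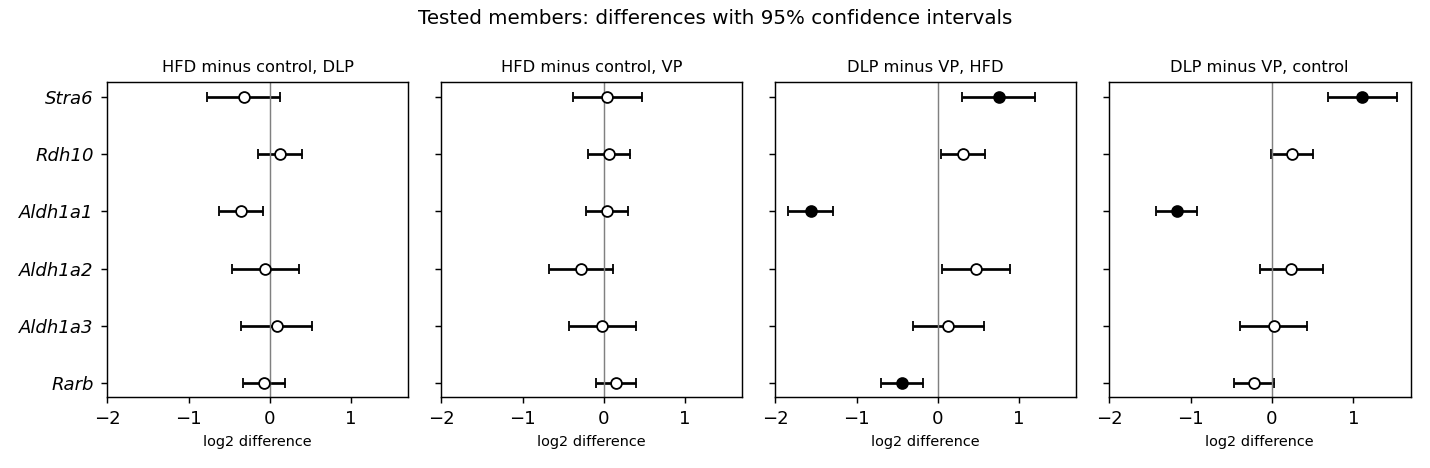
Log2 difference (horizontal axes) with its 95% confidence interval for the 6 tested members, for HFD minus control in each lobe and for DLP minus VP on each diet. Filled points passed limma's adjusted p of 0.05; the filled points are Stra6 and Aldh1a1 on both diets and Rarb in HFD mice, all between lobes.

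Uptake and transport come first. Stra6, the membrane receptor for retinol-binding protein, had log2 levels of 2.07, 2.64, 1.90 and 2.28 in HFD DLP and 2.83, 2.41, 2.29, 2.70 and 2.48 in control DLP. In HFD VP they were 1.94, 0.97, 1.99, 0.91 and 1.57, and in control VP 1.76, 1.15, 1.27, 1.38 and 1.60. In control mice the lobes did not overlap, while in HFD mice 2 VP arrays reached the lowest DLP level. DLP minus VP was 0.75 in HFD mice, with a 95% interval of 0.30 to 1.20 and limma's adjusted p of 0.00616, and 1.11 in control mice, with an interval of 0.69 to 1.53 and an adjusted p of 0.000111. In the fit with no filter, which every gene enters, limma's adjusted p was 0.0079 in HFD mice and 0.000121 in control mice. The VP levels lay mostly below the array median, so the sizes are uncertain.

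Rbp4, the plasma carrier of retinol, lay near or below the array median on every array but 1. Its levels ran from 1.38 to 1.77 in HFD DLP, 1.31 to 1.55 in control DLP, 1.13 to 2.02 in HFD VP and 1.14 to 1.61 in control VP. All 4 groups overlapped. In the fit with no filter DLP minus VP was 0.14 in HFD mice and -0.03 in control mice, with limma's adjusted p of 0.564 and 0.912.

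Rdh10, which oxidises retinol to retinal, was well above the array median on all 19 arrays. Its log2 levels ran from 3.95 to 4.30 in HFD DLP, 3.68 to 4.27 in control DLP, 3.57 to 4.11 in HFD VP and 3.39 to 3.90 in control VP, and the groups overlapped. DLP minus VP was 0.31 in HFD mice, with a 95% interval of 0.04 to 0.58 and limma's adjusted p of 0.0541, and 0.25 in control mice, with an interval of -0.01 to 0.51 and an adjusted p of 0.0914. These values sat at the edge of the call. Leaving out HFD VP 3 gave 0.40 in HFD mice with limma's adjusted p of 0.0125, and leaving out control DLP 2 gave 0.32 in control mice with an adjusted p of 0.0407. Other arrays left out moved the result the other way. The lowest differences were 0.23 in HFD mice and 0.17 in control mice, and limma's adjusted p reached 0.18 and 0.253. The second Rdh10 probe set, in the fit with no filter, gave 0.26 in control mice with limma's adjusted p of 0.0358, and the mean of both probe sets gave 0.25 with an adjusted p of 0.0155. In HFD mice the second probe set averaged 3.16 in DLP and 3.03 in VP.

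Aldh1a1, a cytosolic retinal dehydrogenase, was among the high signals of every array. Its log2 levels were 7.19, 7.50, 6.91 and 7.13 in HFD DLP and 7.65, 7.71, 7.53, 7.54 and 7.24 in control DLP. They were 8.87, 8.90, 8.39, 8.55 and 9.02 in HFD VP and 8.50, 8.78, 8.66, 8.76 and 8.85 in control VP. Every DLP array lay below every VP array. DLP minus VP was -1.57 in HFD mice, or 2.96-fold lower in DLP, with a 95% interval of -1.84 to -1.29 and limma's adjusted p of 4.5e-09. In control mice it was -1.17, or 2.26-fold lower, with an interval of -1.43 to -0.92 and an adjusted p of 1.14e-07.

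Aldh1a7, a close mouse relative of Aldh1a1, had the same direction, with a mean log2 level of 5.68 in HFD DLP against 8.38 in HFD VP and 6.08 in control DLP against 8.41 in control VP. Near-identical transcripts can share array signal, and the sources used here do not separate the pair.

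Aldh1a2, the retinal dehydrogenase known for embryonic and mesenchymal tissue, lay modestly above the array median. Its levels ran from 2.50 to 2.72 in HFD DLP, 2.30 to 3.20 in control DLP, 1.32 to 2.66 in HFD VP and 2.28 to 2.57 in control VP. DLP minus VP in HFD mice was 0.47, with a 95% interval of 0.05 to 0.88 and limma's adjusted p of 0.054. Leaving out HFD VP 3 gave 0.60 with limma's adjusted p of 0.012, and leaving out control DLP 1 gave an adjusted p of 0.0355. Leaving out HFD VP 2 gave the lowest difference, 0.27, and over the fits with 1 array left out limma's adjusted p reached 0.164. In control mice DLP minus VP was 0.24, with an interval of -0.15 to 0.63 and an adjusted p of 0.29.

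Aldh1a3, the third retinal dehydrogenase of the family, had group means of 2.24 in HFD DLP, 2.16 in control DLP, 2.12 in HFD VP and 2.13 in control VP. Single arrays ran from 1.58 to 2.89, both in HFD VP. Limma's adjusted p for DLP minus VP was 0.643 in HFD mice and 0.932 in control mice, with 95% intervals of -0.31 to 0.56 and -0.39 to 0.43. Its other 2 probe sets lay below the array median on all arrays.

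Crabp2, the second binding protein, was in the lowest signals of each array. Its levels ran from 0.52 to 0.71 in HFD DLP, 0.30 to 0.63 in control DLP, 0.40 to 0.67 in HFD VP and 0.67 to 0.97 in control VP. Control DLP did not overlap control VP, while the other pairs of groups compared here overlapped. In a fit with no filter DLP minus VP was 0.08 in HFD mice and -0.35 in control mice, with limma's adjusted p of 0.641 and 0.013. At this distance below the median the numbers describe array signal only.

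Rarb, a retinoic acid receptor whose gene is itself induced by retinoic acid in many cells, lay close to the array median. Its levels were 1.11, 1.77, 1.61 and 1.59 in HFD DLP and 1.56, 1.66, 1.65, 1.61 and 1.46 in control DLP. They were 1.87, 1.74, 2.17, 2.09 and 1.93 in HFD VP and 1.88, 1.67, 1.94, 1.86 and 1.72 in control VP. All DLP arrays lay below the median, and in HFD mice 1 DLP array, at 1.77, overlapped the VP arrays. DLP minus VP was -0.44 in HFD mice, with a 95% interval of -0.70 to -0.18 and limma's adjusted p of 0.00555. Rarb met the filter through VP arrays alone; in the fit with no filter limma's adjusted p was 0.00849 in HFD mice. In control mice the difference was -0.23, with an interval of -0.47 to 0.02 and an adjusted p of 0.11, and after cyclic loess it was -0.29 with limma's adjusted p of 0.0336. Whether the lobe difference of Rarb differed between diets was tested as well, and that difference was -0.21 with an adjusted p of 0.766.

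The diet comparison was then made for the same 6 members. In DLP, where 0% of all genes passed in limma, 0 of 6 passed, with 662 genes and 1 member, Aldh1a1, at an unadjusted p under 0.05. In VP, where 1.11% of all genes passed, 0 of 6 passed limma's adjusted threshold, and 0 of 6 had an unadjusted p under 0.05, against 1786 of all genes. For the difference of the diet changes between lobes, where 0.00853% of all genes passed, 0 of 6 passed in limma, with Aldh1a1 at an unadjusted p under 0.05. The count of members was 0 in these 3 comparisons under each alternative run.

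Aldh1a1 in DLP was the member with the smallest diet p-value, with HFD minus control of -0.36, a 95% interval of -0.63 to -0.08 and limma's adjusted p of 0.817. In VP its difference was 0.04, with an interval of -0.22 to 0.29. The diet change of Aldh1a1 in DLP minus that in VP was -0.39, with limma's adjusted p of 0.568. The DLP difference was not called.

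For the other tested members the 95% intervals of HFD minus control were as follows. In DLP they were -0.77 to 0.13 for Stra6, -0.15 to 0.40 for Rdh10, -0.47 to 0.36 for Aldh1a2, -0.35 to 0.52 for Aldh1a3 and -0.33 to 0.19 for Rarb. In VP they were -0.38 to 0.47 for Stra6, -0.19 to 0.33 for Rdh10, -0.68 to 0.11 for Aldh1a2, -0.43 to 0.39 for Aldh1a3 and -0.10 to 0.39 for Rarb. All 10 intervals included 0. The 2 genes below the filter had HFD minus control in VP of -0.27 for Crabp2 and 0.03 for Rbp4, both at levels mostly below the array median.

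A wider list of retinoid genes was examined by role, with 67 genes listed, 60 on the array with a probe set of their own and 36 past the filter. Between lobes 20 of 36 were called in HFD mice, or 55.6%, and 22 of 36 in control mice, or 61.1%, against the 52.9% and 55% of all genes given above. Of these, 7 were higher and 13 lower in DLP in HFD mice, against 26.8% and 26.1% of all genes. In control mice 9 were higher and 13 lower, against 28.2% and 26.8% of all genes. The median difference over the 36 was -0.08 on each diet, against 0.00 over all genes. On both diets 19 genes were called, all in the same direction, which is 95% of the HFD list and 86.4% of the control list. The share of all genes called on both diets is not given here, so this overlap is a description. The lobe comparisons of the 2 diets use different arrays but take the spread of each gene from the same fit.

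**Figure D4:**
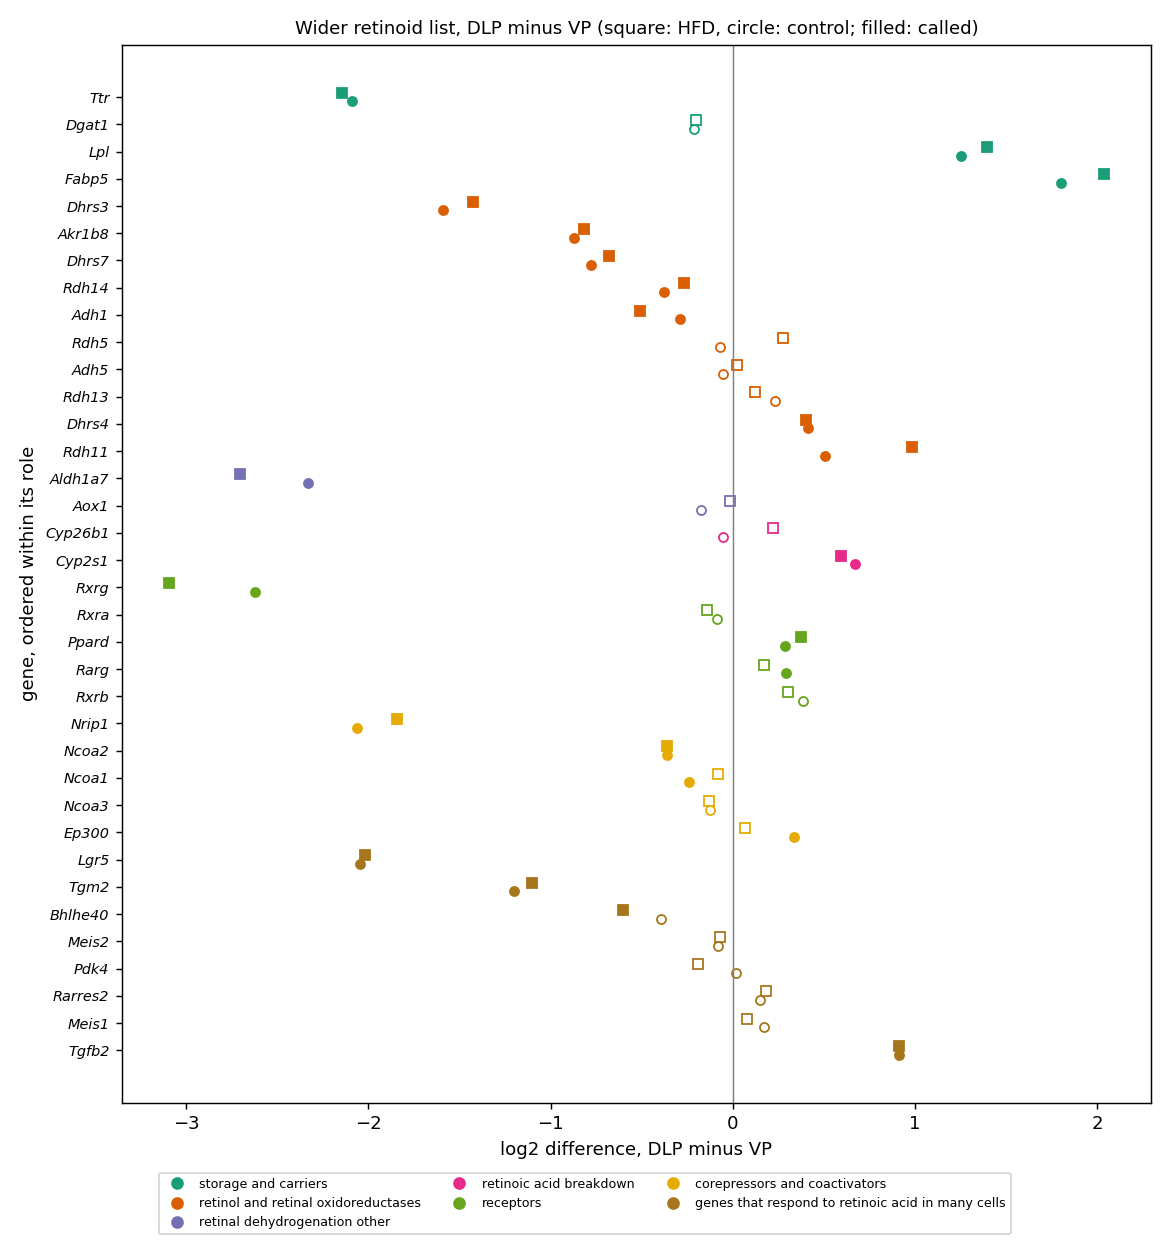
DLP minus VP log2 difference (horizontal axis) of the 36 tested genes of the wider retinoid list, ordered within their roles (colours). Squares are HFD mice, circles control mice, and filled symbols passed limma's adjusted p of 0.05. Fabp5 and Lpl lie farthest to the right, and Rxrg, Aldh1a7, Ttr, Nrip1 and Lgr5 farthest to the left.

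Read by role, the shares called over all genes are the 52.9% in HFD mice and 55% in control mice given above, and with 2 to 10 tested genes a role these counts set no role apart. Among storage and carrier genes 3 of 4 tested were called on each diet. Fabp5, a fatty acid-binding protein that also carries retinoic acid, averaged 6.93 in HFD DLP against 4.89 in HFD VP, and 6.77 in control DLP against 4.97 in control VP. Its DLP minus VP difference was 2.04 in HFD mice and 1.80 in control mice and its second probe set had the same direction. Lpl, lipoprotein lipase, was higher in DLP by 1.39 in HFD mice and 1.25 in control mice. Ttr, transthyretin, which binds retinol-binding protein in plasma, was lower in DLP, with differences of -2.15 and -2.09, and its DLP means of 1.18 in HFD and 1.06 in control mice lay below the array median. Ttr met the filter through VP alone, as did Rxrg, and Cyp2s1 met it through DLP alone; the other 33 genes met it in each lobe, of which 17 were called in HFD mice and 19 in control mice. With no filter limma's adjusted p for Ttr was 4.24e-09 and 2.47e-09.

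Among the retinol and retinal oxidoreductases 7 of 10 were called on each diet, 2 higher and 5 lower in DLP, against 26.8% higher and 26.1% lower of all genes in HFD mice and 28.2% and 26.8% in control mice. Rdh11, a retinal reductase, averaged 4.19 in HFD DLP against 3.21 in HFD VP and 4.04 in control DLP against 3.54 in control VP. Dhrs3, which reduces retinal back to retinol, had DLP minus VP of -1.43 in HFD mice and -1.59 in control mice. Of the other called genes, Akr1b8, Dhrs7, Rdh14 and Adh1 were lower, and the other was Dhrs4, whose 2 probe sets past the filter disagreed in sign, at 0.41 and -0.49 in control mice. Aldh1a7 was the called gene among 2 other retinal-oxidising enzymes, with DLP minus VP of -2.70 in HFD mice and -2.33 in control mice. Cyp2s1, a cytochrome P450 that can oxidise retinoic acid, was higher in DLP by 0.59 in HFD mice and 0.67 in control mice.

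Receptors and cofactors varied in direction. Rxrg, a retinoid X receptor, averaged 0.86 in HFD DLP against 3.95 in HFD VP and 1.20 in control DLP against 3.82 in control VP. Its DLP levels lay below the array median, so the differences of -3.09 and -2.62 have an uncertain size. Ppard, a nuclear receptor that partners with RXRs, was higher in DLP by 0.38 in HFD mice and 0.29 in control mice, and Rarg was called in control mice, at 0.29, though its second probe set gave -0.26. Nrip1, a corepressor that binds RARs, had DLP minus VP of -1.84 in HFD mice and -2.06 in control mice, and its other 4 probe sets past the filter had the same direction.

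Genes that respond to retinoic acid in many cells were called in 4 of 8 cases in HFD mice and 3 of 8 in control mice, shares no higher than the 52.9% and 55% of all genes. Tgfb2, a transforming growth factor, was higher in DLP by 0.91 on both diets. Lgr5, a receptor known from stem cells of other epithelia, had -2.02 in HFD mice and -2.05 in control mice. Tgm2, a transglutaminase, had -1.10 in HFD mice and -1.20 in control mice on the probe set used. Its other probe sets past the filter gave -1.07, -0.76, -0.23 and -0.07 in HFD mice. In control mice the same probe sets gave -1.085, -0.80, -0.14 and 0.02.

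In the diet comparison 2 of the 36 wider genes were called in VP, or 5.56%, against 1.11% of all genes in either direction. Both were lower on the high fat diet, where 0.58% of all genes were called lower. Nrip1 averaged 7.11 in HFD VP against 7.55 in control VP, a difference of -0.44 with limma's adjusted p of 0.0401, and its other probe sets past the filter had -0.40 to -0.54. Rdh11 averaged 3.21 in HFD VP against 3.54 in control VP, a difference of -0.33 with an adjusted p of 0.048, while its second probe set had 0.10. These calls were fragile. With each of 19 arrays left out in turn Nrip1 was called in 8 fits, with differences of -0.47 to -0.38 and limma's adjusted p of at most 0.0738, and Rdh11 in 3, with differences of -0.37 to -0.28. In DLP 0 of 36 were called in limma.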

How the data were processed

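The data were RNA levels from whole prostate lobes, 1 sample per 3′ expression array. Per the submitters' processing notes MAS5 was used; how all arrays came to 1 distribution is not stated. The deposited values were taken as log10 of signal plus 1. The authors' log base is not stated and was inferred from the hybridization controls, whose deposited values stepped by 0.50, 0.62 and 0.99 against 0.52, 0.70 and 0.60 for log10 of their nominal concentrations, so fold sizes rest on this reading. They were converted to log2 with no further normalization. Because of the shared distribution, a shift of most genes together would be hidden.

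Of 45101 probe sets, 64 were controls, 34945 had 1 symbol, 932 several and 9160 none. For 34741 probe sets the symbol was looked up by gene identifier in a RefSeq table used for names. A gene was tested when a probe set lay above the array median on at least 4 arrays. Where a gene had several, the one of highest mean was used. Differences were fitted in R 4.3.3 by limma 3.58.1 (4 group means, eBayes with a trend), two-sided, Benjamini-Hochberg over 11728 genes, threshold 0.05. The fit was tested on simulated data. Text names all 9 members, up to 5 called genes per direction and contrast of the wider list, and the 6 genes nearest Crabp1; further wider-list genes and the probe-set disagreements were named after their values were seen. The members and lists were chosen with earlier results of these data known. Replicate numbers paired the arrays only in part. Between the lobes of a diet, the array of the same number correlated best for HFD 1, 2 and 4 and control 2 and 4. It did not for HFD 3 and control 1, 3 and 5. Alternatives covered the offset, filters, probe sets, variance prior, array and lobe weights, the replicate block, each lobe alone, the threshold, cyclic loess and arrays left out.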

Additional observations from a re-analysis of the deposited data

Results flagged for a closer look

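Crabp1 on control DLP 2, at a log2 level of 1.80, stood apart from the other control DLP arrays, which lay between 0.66 and 0.94. Its gap to the nearest other array, relative to the range of the group, exceeded Dixon's 95% critical value, the 1 such case among 36 groups of 4 or 5 arrays, where chance gives about 1 in 20 groups. The level was still below the array median of 1.85. The same array had the highest ventral marker sum of its group, 3.92, and the part of this in the value was not tested.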

How the results depend on the processing

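Aldh1a1 and Stra6 between lobes on both diets, and Rarb in HFD mice, kept direction and call with each array left out and under each alternative in which they were tested; Stra6 and Rarb were not tested with the filter at the 75th percentile. That filter left 1 member called in control mice, among fewer tested. In HFD mice 5 members were called with array weights, with the replicate block, at the threshold of 0.10 and with the arrays HFD VP 3 and control VP 4 both left out (chosen after seeing the data), through Aldh1a2 and Rdh10; leaving out 1 array gave 3 to 5 in HFD mice and 2 to 3 in control mice. The replicate block joined arrays of the same number over both lobes and both diets, so it is not a block by mouse. Correlations of arrays with the same number ran from -0.07 to 0.19 between lobes of a diet and from -0.15 to 0.46 between diets. The block gave limma's adjusted p of 0.0457 for Aldh1a2 and 0.0297 for Rdh10 in HFD mice. In the VP diet contrast it gave 1 called gene of the wider list and 93 of all genes. It changed no other member's call. In control mice Rdh10 was called with the mean of its probe sets, on its second probe set, at the threshold of 0.10, without control DLP 2 and with both arrays left out, and Rarb after cyclic loess. With an offset of 16 the Crabp1 lobe differences shrank to -1.65 in HFD and -2.62 in control mice.

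Signs turned among differences that were not called. For HFD minus control in VP, Aldh1a3 had 0.0041 with an offset of 16, 0.15 as the mean of its probe sets, and 0.41 and 0.056 on its other probe sets, and Stra6 had -0.10 without both arrays. For the difference of the diet changes, Aldh1a3 had -0.24 on another probe set and Rdh10 had -0.037 as the mean of its probe sets and -0.13 on its second. For DLP minus VP in control mice, Aldh1a3 had -0.0172 with array weights, -0.0179 with cyclic loess and -0.0015 on another probe set. With 1 array left out, HFD minus control in VP ran from -0.0323 to 0.13 for Aldh1a1, -0.21 to 0.12 for Aldh1a3, -0.019 to 0.12 for Rdh10 and -0.086 to 0.18 for Stra6. In DLP it ran from -0.14 to 0.0825 for Aldh1a2, -0.0019 to 0.20 for Aldh1a3 and -0.15 to 0.0671 for Rarb. The difference of the diet changes ran from -0.0307 to 0.30 for Aldh1a3 and -0.0176 to 0.14 for Rdh10. DLP minus VP of Aldh1a3 ran from -0.0086 to 0.32 in HFD mice and -0.10 to 0.14 in control mice.

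Over all genes the VP diet count of 130 was 0 with the lobe fitted alone, 20 with 1 weight per lobe, 34 with the mean of probe sets, 47 with array weights, 78 with no filter, 83 with no trend, 209 with the filter at the 75th percentile, 321 at the threshold of 0.10, and 70 to 148 with 1 array left out. The wider list's count of 2 in VP was 0 to 1 with 1 array left out and 0 with no filter, no trend, array weights, the lobe fitted alone, 1 weight per lobe or both arrays left out. The DLP diet count of 0 was 6 with 1 weight per lobe, 5 with array weights, 4 with an offset of 16, 2 at the threshold of 0.10 and 1 with no filter. The 1 gene called for the difference of the diet changes was 0 with the mean of probe sets or the block and 3 with both arrays left out. The cause was not tested. Levels below the array median limit what can be said of Crabp1 in DLP, Crabp2, Rbp4, Rarb and Stra6 in VP.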
